A study of Mus musculus with 22 samples.

Results

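The genes of the oxidative phosphorylation complexes were followed in CD11c+CD8α- dendritic cells (DCs) of the mouse pancreas. Members were the genes whose array annotation symbol starts with Nduf (complex I), Uqcr (complex III), Cox followed by a digit from 4 to 8 (complex IV) or Atp5 (complex V), together with Sdha, Sdhb, Sdhc and Sdhd (complex II). The rule matched 98 symbols. Of these, 90 had at least 1 probe set that named them alone, out of 18193 such genes on the array, and the other 8 lay only on probe sets shared with another gene and were not analysed here. Complex I had 44 members, complex II 4, complex III 8, complex IV 17 and complex V 17. Members were assigned by symbol. Ndufa4, which was later assigned to complex IV, and its paralog Ndufa4l2 therefore count under complex I. A gene was represented by the probe set with the highest mean over the 22 arrays, and 51 of the 90 genes had further probe sets that serve as a check. The rule used no measured difference between groups.

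The study asked how DCs in the pancreas of NOD/ShiLtJ mice, which develop autoimmune diabetes, differ from those of C57BL/6J mice before disease and after a danger signal. All samples were DCs of females of 5 weeks, pooled from 10 pancreases, pre-separated as CD45+ cells and sorted as CD11c+CD8α- cells. The cells were cultured for 18 h with lipopolysaccharide (LPS, a bacterial cell wall component that activates DCs; NOD, n = 4; C57BL/6, n = 3) or with PBS (NOD, n = 4; C57BL/6, n = 4), or lysed directly after sorting (steady state; NOD, n = 3; C57BL/6, n = 4). The sources differ on the origin of the cultured cells: the series description assigns them to another experiment than the steady-state cells, while the methods describe sorted cells that were split between lysis and culture. Culture and experiment therefore cannot be told apart.

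The respiratory chain sits in the inner mitochondrial membrane. Complex I takes electrons from NADH and complex II from succinate, complex III passes them through cytochrome c to complex IV, which reduces oxygen, and complex V (ATP synthase) uses the resulting proton gradient to make ATP. Resting DCs are known to draw on oxidative phosphorylation, and DCs activated through Toll-like receptors are known to shift towards glycolysis. The members here are encoded in the nucleus. They include core subunits, which carry the redox centres or the rotary machinery, accessory subunits, assembly factors of complex I (the Ndufaf genes), and paralogs of complex IV subunits that are best known from lung, muscle or testis.

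Promoters are shown for 5 members with a window. Sdha, Sdhb and Sdhd of complex II are named by rule. Cox6b2 and Atp5g1 are named in 4 of the 9 comparisons each, the largest number among the other members with a window. Sdha, Sdhb, Sdhd and Cox6b2 fell in culture in both strains, and Atp5g1 was called in opposite directions. Each is the RefSeq window of GRCm38.p6 from 250 bases before to 50 bases after the annotated start, 5′ to 3′ on the strand of the gene. Capitals mark matches on either strand to GCATGCGC (the core of the site of NRF1) or CCGGAAG (the core recognised by ETS factors such as GABP), or to TCAAGGTCA (the site of the estrogen-related receptors, ERR). These factors are known regulators of respiratory chain genes. The positions are chr4:140961021-140961320 on the plus strand for Sdhb, chr9:50603800-50604099 on the minus strand for Sdhd, chr13:74350191-74350490 on the minus strand for Sdha, chr7:4753045-4753344 on the minus strand for Cox6b2 and chr11:96075582-96075881 on the minus strand for Atp5g1.
Sdhb: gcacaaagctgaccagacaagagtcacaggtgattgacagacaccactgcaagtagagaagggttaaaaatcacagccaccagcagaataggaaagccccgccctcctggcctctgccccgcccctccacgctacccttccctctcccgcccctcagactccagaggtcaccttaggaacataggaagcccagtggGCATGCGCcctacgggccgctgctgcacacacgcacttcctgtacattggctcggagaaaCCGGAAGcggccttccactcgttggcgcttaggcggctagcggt
Sdhd: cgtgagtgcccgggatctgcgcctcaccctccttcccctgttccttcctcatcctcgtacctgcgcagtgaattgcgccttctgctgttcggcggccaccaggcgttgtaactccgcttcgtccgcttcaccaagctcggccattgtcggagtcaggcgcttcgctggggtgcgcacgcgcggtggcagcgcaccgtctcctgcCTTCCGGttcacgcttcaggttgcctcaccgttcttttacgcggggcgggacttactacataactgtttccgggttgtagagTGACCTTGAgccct
Sdha: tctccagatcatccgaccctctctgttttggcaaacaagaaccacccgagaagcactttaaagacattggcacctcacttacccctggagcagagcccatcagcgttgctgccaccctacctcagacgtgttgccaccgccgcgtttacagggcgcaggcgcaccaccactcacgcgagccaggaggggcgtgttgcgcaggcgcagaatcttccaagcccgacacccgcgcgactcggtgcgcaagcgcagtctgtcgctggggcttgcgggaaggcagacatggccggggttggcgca
Cox6b2: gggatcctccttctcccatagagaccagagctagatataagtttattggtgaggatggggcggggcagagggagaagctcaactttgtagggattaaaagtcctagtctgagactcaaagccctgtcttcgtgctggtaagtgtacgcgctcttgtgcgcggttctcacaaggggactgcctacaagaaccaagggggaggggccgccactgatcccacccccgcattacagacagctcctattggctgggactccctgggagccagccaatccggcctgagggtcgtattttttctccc
Atp5g1: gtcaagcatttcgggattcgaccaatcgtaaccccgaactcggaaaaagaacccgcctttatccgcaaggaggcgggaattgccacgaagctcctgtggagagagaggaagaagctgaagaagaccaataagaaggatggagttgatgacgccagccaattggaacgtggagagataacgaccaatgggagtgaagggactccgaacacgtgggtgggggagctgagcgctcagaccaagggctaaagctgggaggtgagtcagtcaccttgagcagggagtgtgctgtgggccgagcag

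The Sdhb window held an NRF1 and an ETS match, the Sdhd window an ETS and an ERR match on the opposite strand, and the Sdha, Cox6b2 and Atp5g1 windows held none of these letters. A promoter was found for 74 of the 90 members, with 79 windows in all, and 31 members held at least 1 match to these letters or to AAGATGGCG (YY1). GCATGCGC occurred in 13.9% of member windows and in 2.71% of all 32851 windows, CCGGAAG in 24.1% and 8.86%, AAGATGGCG in 8.86% and 1.4%, and TCAAGGTCA in 2.53% and 0.423%. GCATGCGC and its reverse complement can overlap, and such a pair was counted as 1 window. A match is a description of the letters in the window and no evidence of binding.

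Values are log2 intensities after robust multi-array averaging (RMA), so that a difference of 1 is a factor of 2. Levels of different probe sets are not comparable, and each gene is only set against itself. Differences were tested with limma over all 45037 probe sets, with Benjamini-Hochberg adjustment, and called at an adjusted p under 0.1. Between arrays the medians lay within 7.633 and 7.684. Of 12 conventional DC markers, 8 were lower in NOD PBS culture than at steady state, and 7 were lower and 3 higher in C57BL/6. Over all probe sets 29.3% were lower in NOD, and 30.5% were lower and 42.1% higher in C57BL/6. Among the 12 markers, Sirpa (carried by CD8α- DCs) averaged 12.96 to 13.44 and H2-Aa (MHC class II) 12.6 to 14.1 over the 6 groups. The sort itself used CD11c and CD8α. Itgax, which encodes CD11c, averaged 8.34 to 9.03 in the cultured groups and 10.9 in NOD and 11.3 in C57BL/6 steady-state DCs, while Cd8a averaged 8.25 to 9.24 in culture and 7.78 in NOD and 7.56 in C57BL/6 steady-state DCs. In pooled sorted cells, fewer cells of a type and less RNA per cell cannot be told apart.

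Most called members came from the culture comparisons. In NOD DCs after PBS culture, 65 of the 90 members were lower and 8 higher than at steady state, and in C57BL/6 DCs 59 were lower and 13 higher. Over all probe sets the culture comparison called 29.3% lower and 37.8% higher in NOD, and 30.5% lower and 42.1% higher in C57BL/6. The median difference of the members was -0.58 in NOD and -0.39 in C57BL/6, against 0.12 and 0.15 over all probe sets. The mean over the 90 members on each array was 10.82 to 11.07 in NOD PBS and 10.99 to 11.12 in C57BL/6 PBS, and 11.45 to 11.51 in NOD steady-state and 11.39 to 11.47 in C57BL/6 steady-state DCs, so that the cultured arrays did not overlap the steady-state arrays. The members are bright compared with the whole array. Among probe sets with a mean between 10 and 12, 38.7% were lower in NOD culture and 41.4% in C57BL/6 culture, and at 12 and over 35.6% and 37.6%, while of the 70 members with a mean of 10 or more 54 were lower in NOD and 49 in C57BL/6.

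**Figure D1:**
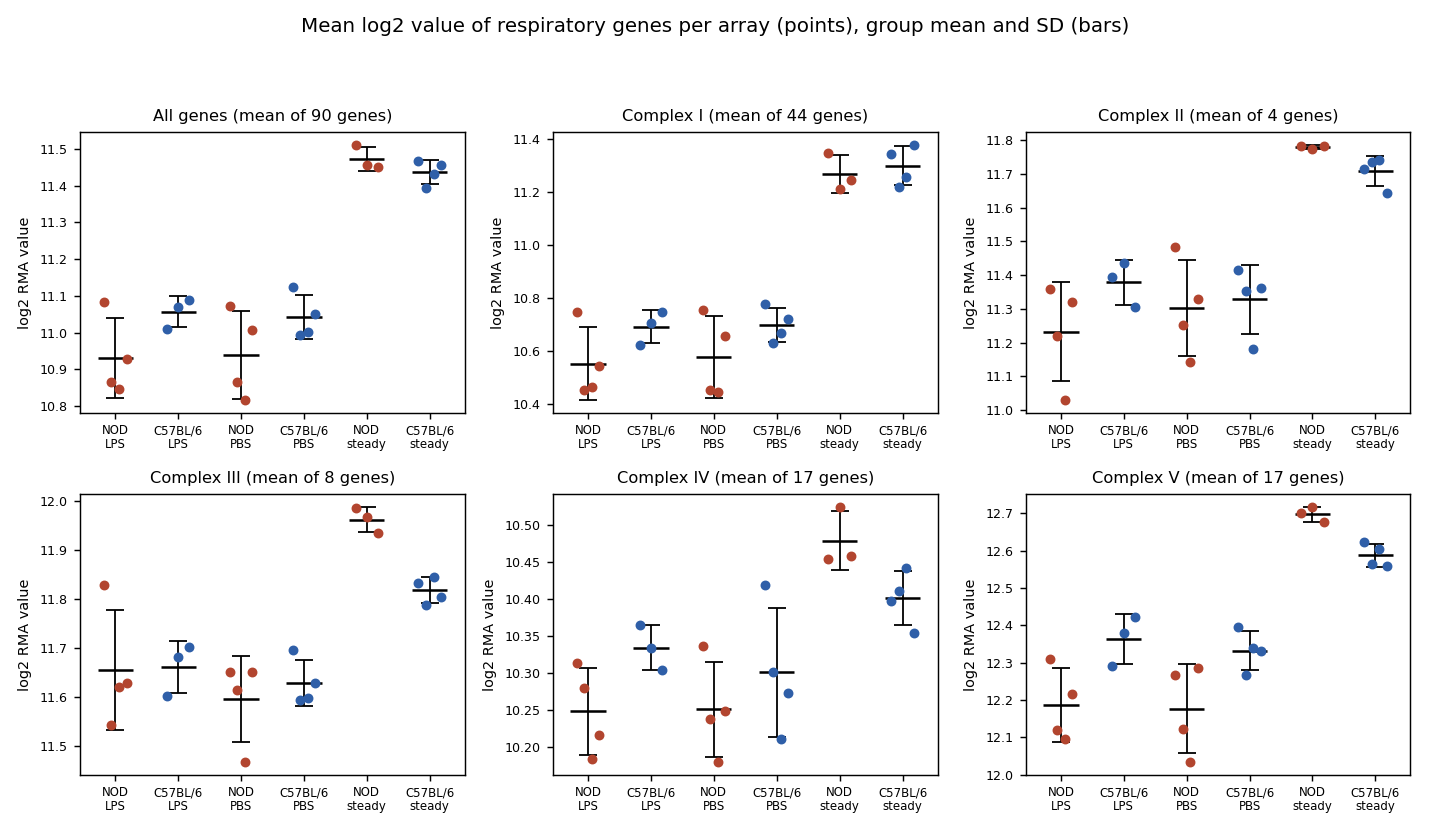
Mean log2 RMA value of the members of each complex on each array (y axis) by group (x axis), with 1 panel for all 90 members and 1 per complex, 1 point per array (NOD red, C57BL/6 blue) and bars for the group mean and SD. For complex I the steady-state arrays lie above all cultured arrays, while the LPS and PBS arrays of a strain overlap.

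The shift differed in size by complex. In complex I, 37 of 44 members fell and 2 rose in NOD (median -0.69), and 34 fell and 4 rose in C57BL/6 (median -0.69). In complex V, 13 of 17 fell and 1 rose in NOD (median -0.53), and 11 fell and 2 rose in C57BL/6 (median -0.31). In complex III, 5 of 8 fell and 1 rose in NOD (median -0.53), and 4 fell and 1 rose in C57BL/6 (median -0.18). Complex IV was mixed, with 7 of 17 lower and 4 higher in NOD (median -0.14), and 7 lower and 5 higher in C57BL/6 (median 0.14). Whether the complexes differ from each other was not tested.

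**Figure D2:**
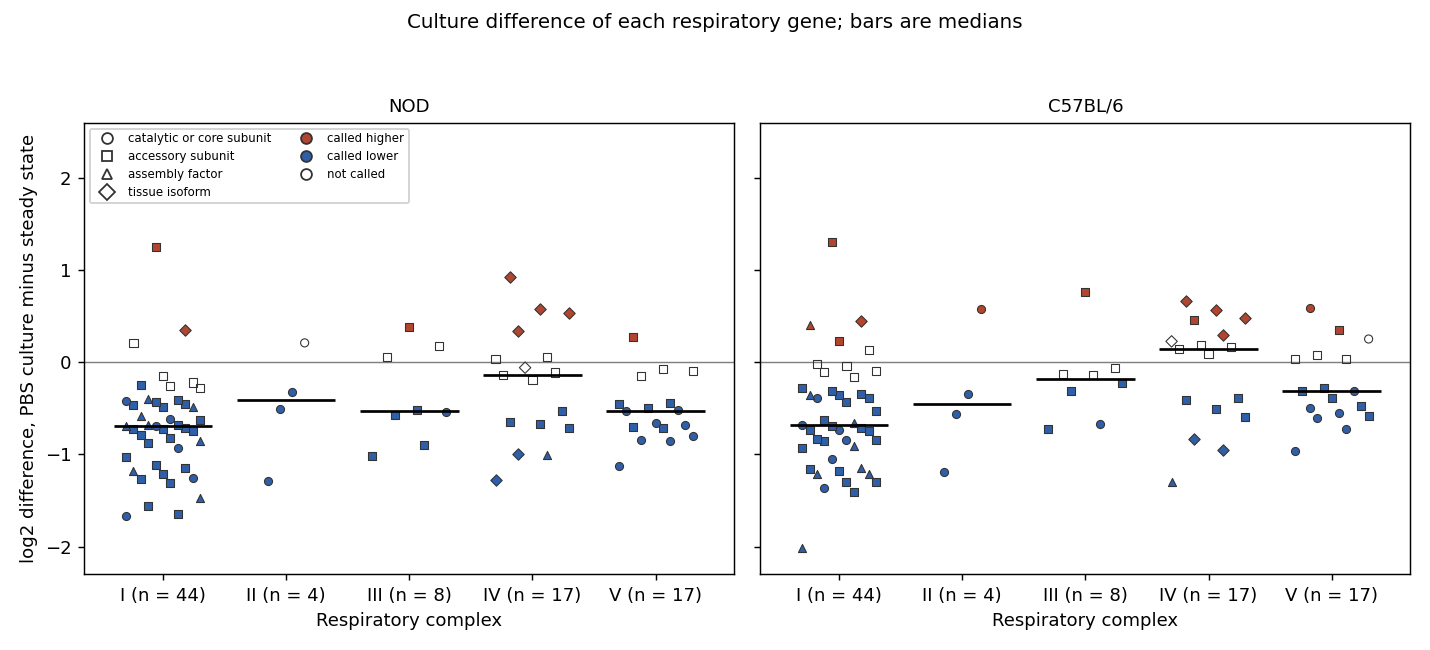
Log2 difference between PBS culture and steady state (y axis) of each of the 90 members by complex (x axis), in NOD (left) and C57BL/6 (right), with the symbol showing the class of subunit, the fill the limma call and bars the medians. Most genes of complexes I and V lie below 0, and the tissue isoforms (diamonds) lie mostly above it.

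Of the core subunits of complex I, all 6 fell in both strains. Ndufs8 carries iron-sulfur clusters on the electron path and showed the largest fall of any member in NOD. Its intensity was 10.86, 10.43, 10.39 and 10.64 in NOD PBS, against 12.47, 12.10 and 12.19 in NOD steady-state DCs. It was 11.15, 10.75, 10.85 and 10.93 in C57BL/6 PBS, against 12.32, 12.20, 12.21 and 12.41 in C57BL/6 steady-state DCs. All cultured arrays were thus below all steady-state arrays. The difference was -1.67 ± 0.15 (SE, limma adjusted p = 2.16e-06) in NOD and -1.36 ± 0.11 (adjusted p = 7.81e-07) in C57BL/6. Of its 5 other probe sets 4 gave a negative difference in both strains (-1.60 to -0.36 in NOD and -1.34 to -0.23 in C57BL/6), and 1 was called higher (0.56 and 0.66).

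Among the accessory subunits of complex I, 23 of 29 fell in NOD and 21 in C57BL/6. The 29 include Ndufa4, which carries a complex I name and was later assigned to complex IV. Ndufb10, which sits in the membrane arm, fell in NOD (-1.56, with PBS replicate 1 apart from the other arrays) and in C57BL/6 (-1.41). Ndufv3, at the NADH-binding module, fell as well (-1.65 in NOD and -1.30 in C57BL/6). Ndufb1, another membrane arm subunit, did the opposite. It reached 8.74, 8.53, 8.85 and 8.91 in NOD PBS, against 7.24, 7.86 and 7.42 in NOD steady-state DCs, a difference of 1.25 ± 0.16 (SE, limma adjusted p = 4.4e-05). In C57BL/6 the difference was 1.30 ± 0.10 (adjusted p = 2.86e-07), with 9.02 to 9.14 in PBS and 7.66 to 7.88 at steady state. The groups did not overlap in either strain. No other probe set names Ndufb1 alone, and its mean over all arrays was 8.591. Among all probe sets with a mean of 8 to 10, culture called 29.9% higher in NOD and 32.6% in C57BL/6.

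The 8 Ndufaf assembly factors help to build complex I without being part of it. On their brightest probe sets all 8 fell in NOD, and 7 of 8 in C57BL/6. The probe sets of Ndufaf8 were called in opposite directions in both strains. Their mean was called neither in NOD (-0.18, limma adjusted p = 0.17) nor in C57BL/6 (0.10, adjusted p = 0.365). The NOD fall of Ndufaf1 was no longer called when steady-state array 1 (-0.37) or 6 (-0.38) was dropped. Ndufaf7, a methyltransferase that acts on a core subunit, showed the largest fall of any member in C57BL/6. Its intensity was 8.19, 8.16, 8.23 and 7.98 in NOD PBS, against 9.75, 9.39 and 9.70 in NOD steady-state DCs (difference -1.47 ± 0.13, SE, limma adjusted p = 2.02e-06). It was 8.36, 8.35, 7.93 and 8.28 in C57BL/6 PBS, against 10.14, 10.26, 10.24 and 10.34 in C57BL/6 steady-state DCs (difference -2.02 ± 0.12, adjusted p = 4.3e-08). The exception on the brightest probe sets was Ndufaf3. It fell in NOD (-0.40, adjusted p = 0.0118) and was higher in C57BL/6 culture by 0.41 (adjusted p = 0.00541).

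In complex II, which is also an enzyme of the citric acid cycle, Sdha, Sdhb and Sdhd fell in both strains. Sdha, the flavoprotein that oxidises succinate, had 11.74, 11.28, 11.13 and 11.47 in NOD PBS, against 12.77, 12.58 and 12.75 in NOD steady-state DCs (difference -1.29 ± 0.15, SE, limma adjusted p = 1.95e-05). It had 11.82, 11.70, 11.60 and 11.96 in C57BL/6 PBS, against 12.95, 12.92, 12.96 and 13.01 in C57BL/6 steady-state DCs (difference -1.19 ± 0.11, adjusted p = 1.34e-06). The cultured and steady-state groups did not overlap. The iron-sulfur subunit Sdhb fell in NOD (-0.51, adjusted p = 0.00842) and in C57BL/6 (-0.56, adjusted p = 0.0005), as did the membrane anchor Sdhd (-0.32, adjusted p = 0.0763 in NOD and -0.35, adjusted p = 0.0163 in C57BL/6). The NOD call of Sdhd was lost without NOD steady-state replicate 1 or 6 or NOD PBS replicate 3 or 4 (adjusted p 0.159 to 0.243, differences -0.28 to -0.24). With the replicate number as a block the NOD call of Sdhb was lost (-0.35, adjusted p = 0.131). The calls of Sdhd were then lost in NOD (-0.24, adjusted p = 0.31) and in C57BL/6 (-0.26, adjusted p = 0.244). The other anchor, Sdhc, was higher in C57BL/6 culture by 0.58 (adjusted p = 0.00174) with 0.21 (adjusted p = 0.245) in NOD, but its second probe set went the other way, with -0.97 in NOD (adjusted p = 0.000169) and -0.60 in C57BL/6 (adjusted p = 0.000991). Among the further probe sets of Sdha, 1 was lower (-0.80 and -0.60), 1 was not called (-0.26 and -0.06) and 1 was higher (0.48 and 0.61).

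In complex III, the Rieske iron-sulfur protein Uqcrfs1 fell in NOD (-0.54, limma adjusted p = 0.00257) and in C57BL/6 (-0.67, adjusted p = 9.27e-05), as did the core protein Uqcrc1 (-0.58 in NOD and -0.73 in C57BL/6). The small subunit Uqcr11 fell in NOD (-1.02, adjusted p = 0.000579) and differed by -0.14 in C57BL/6 (adjusted p = 0.258). Uqcrq, a subunit near the ubiquinone-binding site, was higher in culture. It had 12.70, 12.80, 12.57 and 12.83 in NOD PBS, against 12.14, 12.65 and 12.24 in NOD steady-state DCs, where the groups overlapped (difference 0.38 ± 0.14, SE, adjusted p = 0.038). It had 12.35, 12.14, 12.12 and 12.01 in C57BL/6 PBS, against 11.40, 11.46, 11.59 and 11.12 in C57BL/6 steady-state DCs, which did not overlap (difference 0.76 ± 0.12, adjusted p = 0.000223). The NOD call of Uqcrq was lost without NOD steady-state replicate 1 (difference 0.28, adjusted p = 0.161) or 6 (0.33, adjusted p = 0.137).

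In complex IV, the general accessory subunits were either lower (4 of 9 in both strains) or not called, except that Cox7c was higher in C57BL/6 culture by 0.46 (limma adjusted p = 0.0281). Cox7a2l, which joins complexes III and IV into supercomplexes, fell to 12.12, 11.62, 11.62 and 11.69 in NOD PBS, against 12.77, 12.88 and 12.67 in NOD steady-state DCs (difference -1.01 ± 0.15, SE, adjusted p = 0.000113). NOD PBS replicate 1 lay above the others of its group, and still below all steady-state arrays. In C57BL/6 it had 11.40 to 11.89 in PBS and 12.97 to 13.15 at steady state (difference -1.30 ± 0.12, adjusted p = 2.36e-06). Among the 8 paralogs of other tissues, with Ndufa4l2, a hypoxia-induced relative of Ndufa4, counted among them, 5 were higher and 2 lower in each strain. Cox4i2, the lung form of subunit 4, had 7.85, 8.26, 8.04 and 8.16 in NOD PBS, against 7.02, 7.36 and 7.07 in NOD steady-state DCs (difference 0.93 ± 0.14, adjusted p = 0.000143). In C57BL/6 it differed by 0.67 ± 0.13 (adjusted p = 0.000985). The muscle form Cox8b rose by 0.58 in NOD and by 0.57 in C57BL/6, with 1 low C57BL/6 steady-state array (replicate 6), and the testis form Cox8c by 0.54 and by 0.48. The Cox8c call in C57BL/6 was lost without C57BL/6 PBS replicate 1 (adjusted p = 0.113) or 2 (adjusted p = 0.116). Ndufa4l2 was higher by 0.35 in NOD, a call lost without NOD steady-state replicate 1 (difference 0.23, adjusted p = 0.169), and by 0.44 in C57BL/6. In contrast, the testis form Cox6b2 fell (-1.28 in NOD and -0.83 in C57BL/6), as did the muscle form Cox7a1 (-0.996 and -0.95). The highest value on any array was 8.26 for Cox4i2, 7.99 for Cox8b and 8.36 for Cox7a1, which are dim probe sets. Among all probe sets with a mean under 8 culture called 42.1% higher in NOD and 47.9% in C57BL/6.

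In ATP synthase, all 8 genes of the catalytic head, central stalk and c-ring fell in NOD on their brightest probe set. In C57BL/6, 6 of 8 did. The c-ring genes Atp5g1 and Atp5g2 had probe sets called in opposite directions in NOD. Averaged over the probe sets of each gene, neither was called there (-0.14 and -0.06, limma adjusted p = 0.383 and 0.682). The brightest probe set of Atp5g2 gave -0.51. Dropping steady-state array 4 shrank this to -0.24 and dropping PBS array 3 to -0.42, and neither value was called. Atp5c1, the central stalk subunit that turns inside the head, had 12.12, 11.81, 11.67 and 11.96 in NOD PBS, against 13.12, 12.87 and 13.06 in NOD steady-state DCs (difference -1.13 ± 0.14, SE, limma adjusted p = 2.8e-05). It had 12.16, 12.12, 12.20 and 12.30 in C57BL/6 PBS, against 13.13, 13.16, 13.08 and 13.27 in C57BL/6 steady-state DCs (difference -0.96 ± 0.10, adjusted p = 4.21e-06). The groups did not overlap. The catalytic subunit Atp5b fell (-0.80 in NOD and -0.72 in C57BL/6), as did the stalk subunit Atp5d (-0.86 and -0.60), with C57BL/6 PBS replicate 3 above the other arrays of its group. Atp5md, a small membrane subunit, was higher by 0.28 in NOD (adjusted p = 0.0726) and by 0.35 in C57BL/6 (adjusted p = 0.0105), and its NOD call was lost without any of NOD steady-state replicates 1, 4 and 6 or NOD PBS replicates 1 and 4 (adjusted p 0.102 to 0.168).

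The calls of the 2 strains overlapped largely. Of the members lower in culture, 57 were lower in both strains, which is 87.7% of the 65 in NOD and 96.6% of the 59 in C57BL/6. Of the members higher in culture, 7 were higher in both, which is 87.5% of the 8 in NOD and 53.8% of the 13 in C57BL/6. Only Atp5g1 and Ndufaf3 were called in opposite directions, and 11 members were called in neither strain. The single arrays left out in turn gave 66 to 74 called members in NOD and 69 to 72 in C57BL/6.

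Genes with several probe sets did not always give 1 answer. In NOD culture 9 members, and in C57BL/6 culture 8, had probe sets called in opposite directions, among them Ndufs8, Ndufc2, Ndufb2 and Sdha in both strains. Averaging all probe sets of a gene gave 66 members lower and 9 higher in NOD, and 56 lower and 14 higher in C57BL/6.

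**Figure D3:**
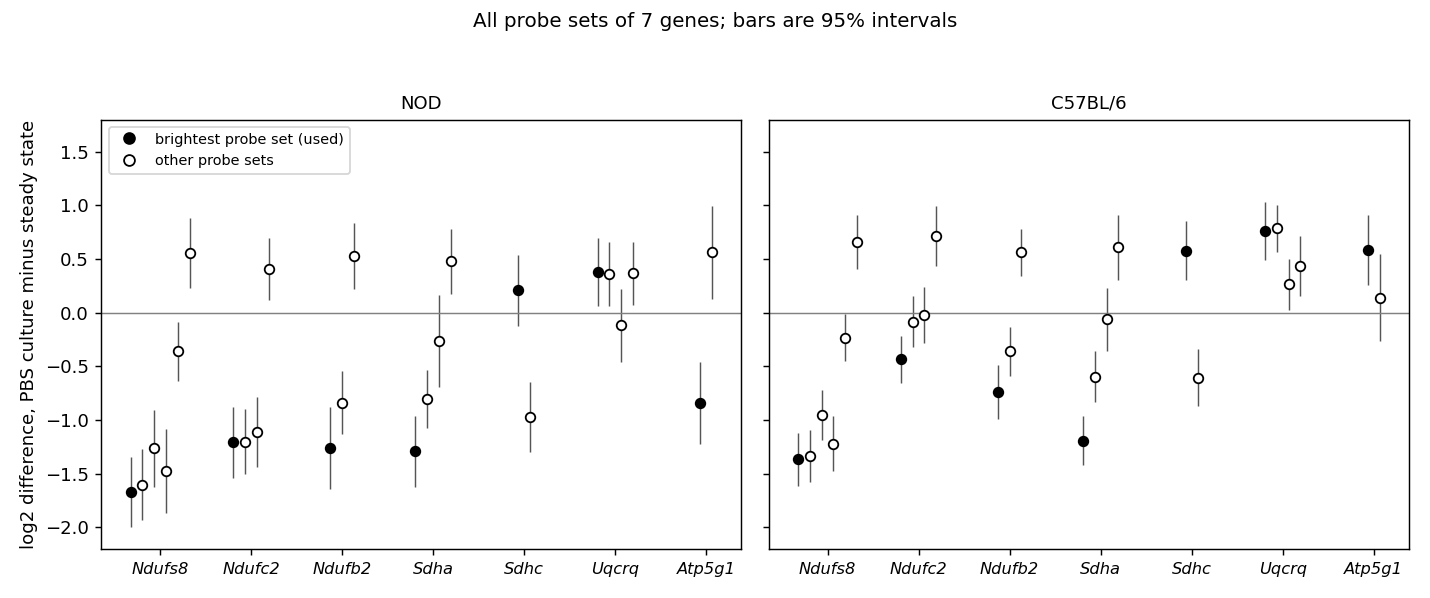
Log2 difference between PBS culture and steady state (y axis) for every probe set that names Ndufs8, Ndufc2, Ndufb2, Sdha, Sdhc, Uqcrq or Atp5g1 alone (x axis), in NOD (left) and C57BL/6 (right), with the brightest probe set filled and bars for the 95% confidence interval. Those of Ndufs8 range between -1.67 and 0.56 in NOD.

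Markers of other cell types and RNA measures were set beside the culture comparisons. Over all probe sets, culture called 29.3% lower and 37.8% higher in NOD, and 30.5% lower and 42.1% higher in C57BL/6. The 10 measured acinar genes, markers of the exocrine pancreas, fell for 9 of 10 in NOD (median -2.45) and for 10 of 10 in C57BL/6 (median -2.47), and their mean per array was 8.542 to 11.843 in NOD PBS and 8.349 to 11.49 in C57BL/6 PBS, and 12.031 to 13.021 in NOD and 12.546 to 12.995 in C57BL/6 steady-state DCs. Within NOD PBS the array with the highest acinar mean (replicate 4, 11.843) had a member mean of 11.006, and the array with the lowest (replicate 1, 8.542) had a member mean of 11.072. Within C57BL/6 PBS the array with the highest acinar mean (replicate 1, 11.49) had the highest member mean (11.124), and the array with the lowest (replicate 2, 8.349) had the lowest (10.994). Conventional DC markers fell for 8 of 12 in NOD and for 7 of 12 in C57BL/6, with 3 higher in C57BL/6. Macrophage markers fell for 6 of 10 and 7 of 10, with 2 higher in each strain. Cell cycle genes fell for 9 of 11 with 1 higher in NOD, and for 10 of 11 in C57BL/6. Islet markers were higher for 5 of 7 and lower for 1 in NOD, and higher for 6 and lower for 1 in C57BL/6. NK and T cell markers were split, with 3 of 10 higher and 4 lower in NOD and 3 higher and 3 lower in C57BL/6, as were markers of CD8α+ or CD103+ DCs, with 3 of 7 higher and 4 lower in each strain. The 3′ minus 5′ difference of the Gapdh control probe sets was 0.842 to 1.445 on cultured arrays and 0.984 to 3.166 on steady-state arrays. The part of these shifts in the fall of the respiratory genes was not tested.

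Genes around the respiratory chain were also lower in culture, and the shares of all probe sets given above are the background for these lists. Of 15 measured citric acid cycle genes (a list without the Sdh genes), 12 fell and none rose in NOD (median -0.94) and 14 fell and none rose in C57BL/6 (median -0.93; limma, adjusted p under 0.1). The largest falls in this list were those of Fh1, which encodes fumarase (-2.94 in NOD and -3.35 in C57BL/6), and of Suclg2, a succinyl-CoA ligase subunit (-2.55 and -2.19). Of 12 carriers and exchangers around the chain, 8 fell and 2 rose in NOD, and 9 fell and 2 rose in C57BL/6. The ADP/ATP carrier Slc25a4 fell (-2.10 in NOD and -1.75 in C57BL/6), whereas Cycs (cytochrome c) was higher by 1.58 and 1.37. Of 29 further assembly factors, 16 fell in each strain and 7 rose in NOD and 6 in C57BL/6. Nubpl, which delivers iron-sulfur clusters to complex I, fell (-1.85 in NOD and -1.74 in C57BL/6), and Sco1, a copper chaperone of complex IV, was higher by 1.70 and 1.78.

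Of 13 factors of mitochondrial biogenesis, 10 fell and 3 rose in NOD, and 9 fell and 2 rose in C57BL/6. Ppargc1b, a coactivator of respiratory chain genes, fell (-3.01 in NOD and -1.81 in C57BL/6), as did Polrmt, the mitochondrial RNA polymerase (-1.70 and -1.65). Of 11 genes of mitochondrial fusion, fission and removal, 5 fell in each strain, none rose in NOD and 4 rose in C57BL/6, and Pink1, a kinase that marks damaged mitochondria, fell (-2.05 and -2.19). Of 76 mitochondrial ribosomal protein genes, 47 fell and 10 rose in NOD, and 44 fell and 10 rose in C57BL/6. Of 46 cytosolic ribosomal protein genes, 37 fell and 3 rose in NOD (median -0.59), and 33 fell and 5 rose in C57BL/6 (median -0.44).

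Strain differences touched few members. At steady state 5 of the 90 members were higher and 3 lower in NOD than in C57BL/6 DCs, beside 7.09% of all probe sets higher and 7.94% lower. In PBS culture 2 were higher and 7 lower, beside 4.78% and 5.09%, and in LPS culture 2 were higher and 7 lower, beside 5.03% and 4.88%. In shares, 5.56% of the members were higher and 3.33% lower at steady state, and 2.22% were higher and 7.78% lower in PBS as in LPS. These shares are near or below the background, except that of the lower members in culture. Among bright probe sets, however, 8.21% were lower in PBS and 8.32% in LPS at a mean of 10 to 12, and 6.63% and 6.03% at 12 and over, while of the 70 members with a mean of 10 or more 4 were lower in PBS and 5 in LPS. The median difference of the members was 0.02 at steady state, -0.08 in PBS and -0.11 in LPS, against 0.04, 0.03 and 0.01 over all probe sets. In all, 16 members were called in at least 1 of the 3 conditions, and 3 of them in all 3: Cox7c and Ndufs5 were lower and Uqcrq higher in NOD each time.

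Cox7c, a small subunit of complex IV, was the member with the largest strain difference in culture. At steady state it had 7.51, 7.13 and 7.33 in NOD, against 8.35, 7.83, 8.25 and 8.28 in C57BL/6 DCs (difference -0.86 ± 0.14, SE, limma adjusted p = 0.00301). In PBS it had 7.25, 6.71, 7.65 and 7.14 in NOD, against 8.32, 8.46, 9.01 and 8.76 in C57BL/6 DCs (difference -1.45 ± 0.20, adjusted p = 0.0012). In LPS it had 7.52, 7.34, 7.58 and 7.03 in NOD, against 8.36, 8.47 and 8.67 in C57BL/6 DCs (difference -1.13 ± 0.15, adjusted p = 0.00191). The strains did not overlap in any condition. Its second probe set gave -0.83, -1.84 and -1.33 in the same order, all called. The brightest probe set of Cox7c is dim, with a mean of 7.861 over all arrays beside array medians of 7.633 to 7.684.

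Ndufs5, an accessory subunit of complex I, was also lower in every condition. It had 9.76, 9.47 and 9.58 in NOD, against 10.53, 10.28, 10.35 and 10.52 in C57BL/6 DCs at steady state (difference -0.82 ± 0.11, SE, limma adjusted p = 0.000744). In PBS it had 9.50, 9.38, 9.05 and 9.39 in NOD, against 10.47, 10.31, 10.57 and 10.19 in C57BL/6 DCs (difference -1.05 ± 0.13, adjusted p = 0.000598), and in LPS 9.45, 9.29, 9.05 and 9.22 in NOD, against 9.99, 10.51 and 10.34 in C57BL/6 DCs (difference -1.03 ± 0.15, adjusted p = 0.00313). The strains did not overlap, and no other probe set names this gene alone. Whether the array probes match the NOD sequence as well as that of C57BL/6 was not tested for this or any other member. Neither culture comparison called Ndufs5 (-0.28 in NOD and -0.04 in C57BL/6).

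Uqcrq of complex III was higher in NOD in every condition on its brightest probe set. At steady state it had 12.14, 12.65 and 12.24 in NOD, against 11.40, 11.46, 11.59 and 11.12 in C57BL/6 DCs (difference 0.95 ± 0.15, SE, limma adjusted p = 0.00183). The difference was 0.57 ± 0.12 in PBS (adjusted p = 0.0122) and 0.72 ± 0.11 in LPS (adjusted p = 0.003), with 12.57 to 12.83 in NOD against 12.01 to 12.35 in C57BL/6 PBS, and 12.81 to 12.98 in NOD against 12.15 to 12.20 in C57BL/6 LPS. The arrays of the strains did not overlap. Its 3 other probe sets did not follow: they gave 0.41 (called), -0.04 and 0.11 at steady state, and -0.02, -0.42 (called lower) and 0.04 in PBS. With the mean over all its probe sets Uqcrq was not called in PBS (0.04, adjusted p = 0.829) or LPS (0.16, adjusted p = 0.362).

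**Figure D4:**
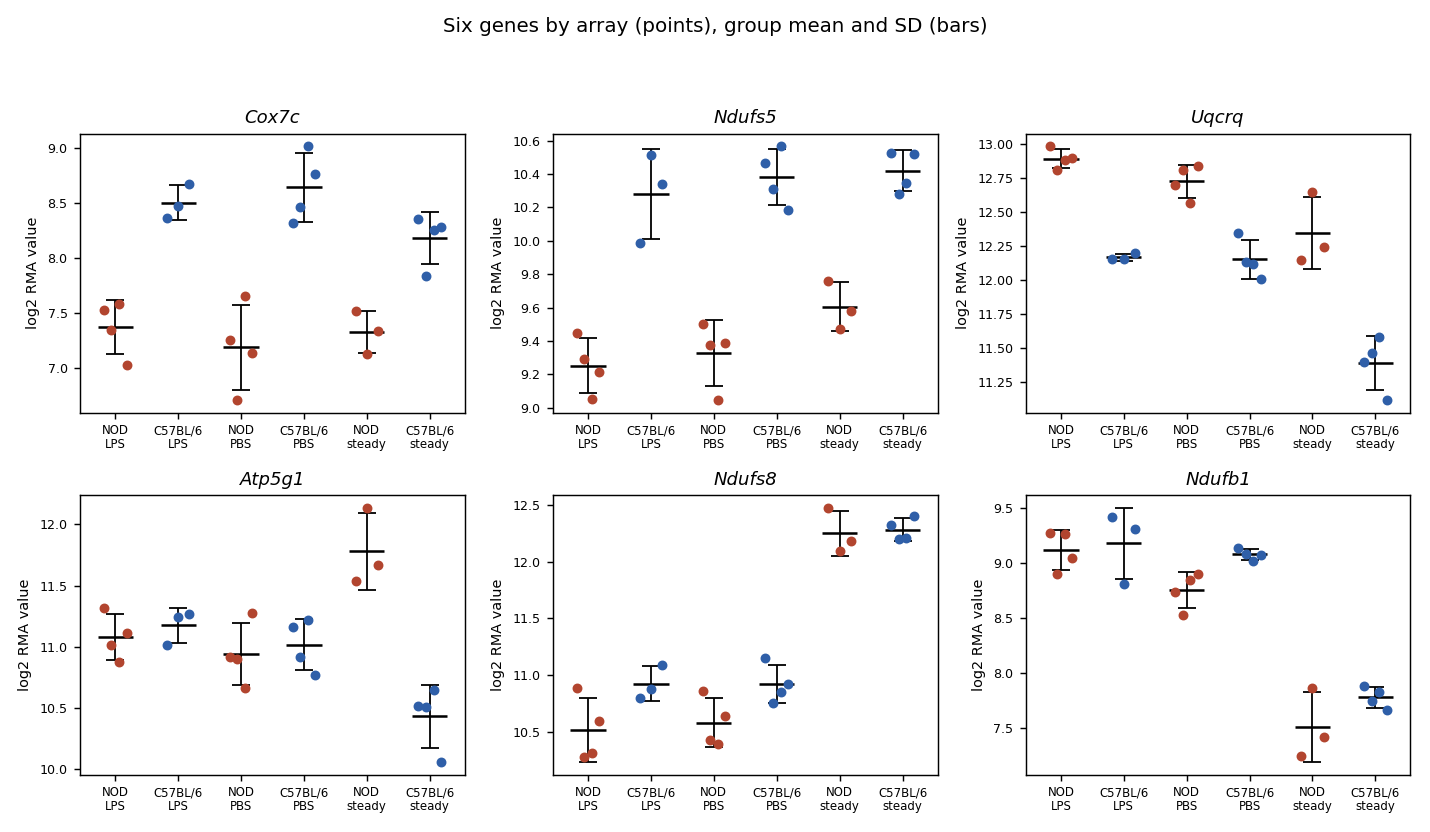
Log2 RMA value (y axis) of Cox7c, Ndufs5, Uqcrq, Atp5g1, Ndufs8 and Ndufb1 by group (x axis), with 1 point per array (NOD red, C57BL/6 blue) and bars for the group mean and SD. NOD arrays lie below C57BL/6 arrays in every condition for Cox7c and Ndufs5, and Atp5g1 separates the strains at steady state but not in culture.

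At steady state alone, the largest strain difference was that of Atp5g1, which encodes the membrane c-ring subunit of ATP synthase, a protein that sister genes encode as well. It had 11.54, 12.13 and 11.67 in NOD, against 10.51, 10.51, 10.65 and 10.06 in C57BL/6 DCs, with no overlap (difference 1.35 ± 0.17, SE, limma adjusted p = 0.000491). Its other probe set gave -0.23 (adjusted p = 0.203). Cox6b2 was higher in NOD by 0.96 (adjusted p = 0.00414), with 9.12, 9.73 and 9.07 in NOD, against 8.24, 8.62, 8.37 and 8.15 in C57BL/6 DCs, which did not overlap. Sdhc was higher by 0.60 (adjusted p = 0.0484) and Uqcr11 by 0.52 (adjusted p = 0.0597), while Ndufaf7 was lower in NOD (-0.63, adjusted p = 0.00435). NOD replicate 4 was the highest NOD array for Atp5g1, Uqcr11, Uqcrq, Cox6b2 and Sdhc. C57BL/6 replicate 6 was the lowest C57BL/6 array for the same 5 genes. The 3′ minus 5′ difference of Gapdh was 0.984 on this NOD array, the lowest at steady state, and 3.166 on this C57BL/6 array, the highest, and its part in the differences was not tested. Without NOD replicate 4 the calls of Sdhc (0.42, adjusted p = 0.163) and Uqcr11 (0.32, adjusted p = 0.162) were lost. Both calls were also lost without NOD replicate 6 or C57BL/6 replicate 6, that of Sdhc without C57BL/6 replicate 1 and that of Uqcr11 without C57BL/6 replicate 5 (adjusted p 0.102 to 0.135). Without NOD replicate 1 the comparison called 13 members. With the replicate number as a block it called 10 (7 higher and 3 lower). Atp5g2, another c-ring gene (0.65, adjusted p = 0.011), and Cox6a2 (0.38, adjusted p = 0.0631) were added as higher in NOD, both named after their values were seen. The remaining complex II genes were not called (Sdha -0.26, Sdhb 0.03 and Sdhd -0.08). Sdha was called lower with an intensity trend and robust spread (adjusted p = 0.0273) and without the dimmer 50% of probe sets (adjusted p = 0.0746). It was also called without NOD replicate 1 (-0.30, adjusted p = 0.0976). With the mean over its probe sets it was not (0.03, adjusted p = 0.776). Besides the members, cell cycle genes were lower for 10 of 11, and NK and T cell markers were lower for 6 of 10 and higher for 1. Over all probe sets 7.94% were lower and 7.09% higher. The part of these genes and markers in the strain differences was not tested.

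In PBS culture, 5 of the 7 members that were lower in NOD belonged to complex I, which has 44 of the 90 members. The median difference was -0.09 in complex I and -0.13 in complex V. Ndufc2, a membrane arm subunit, had 12.11, 11.72, 11.43 and 11.78 in NOD PBS, against 12.61, 12.42, 12.54 and 12.42 in C57BL/6 PBS (difference -0.74 ± 0.14, SE, limma adjusted p = 0.00926). Of its 4 probe sets 3 were called lower there (-0.92 to -0.69), and the fourth gave -0.22. Ndufa7 differed by -0.59 (adjusted p = 0.00901), Ndufaf3 by -0.57 (adjusted p = 0.0115) and Ndufb6, outside the naming rule and named after its value was seen, by -0.40 (adjusted p = 0.093). The Ndufb6 call was lost without any of the C57BL/6 PBS replicates 1 to 4 or NOD PBS replicates 2 to 4 (adjusted p 0.132 to 0.235). Atp5e, the smallest central stalk subunit, differed by -0.45 (adjusted p = 0.0555), and the call was lost without C57BL/6 PBS replicate 1 or 3 or NOD PBS replicate 1, 2 or 3 (adjusted p 0.105 to 0.158). Cox6b2 was higher in NOD by 0.51 (adjusted p = 0.0793), and the call was lost without C57BL/6 PBS replicate 2, 3 or 4 or NOD PBS replicate 1, 2 or 3 (adjusted p 0.115 to 0.2). Sdhb, Sdhc and Sdhd were not called in PBS (0.08, 0.23 and -0.06). The labels do not say what the replicate numbers stand for, and they were taken as pairs from correlations only. With these numbers as a block, PBS culture gave 14 called members (11 lower and 3 higher). Sdha (-0.36, adjusted p = 0.0742, against 0.193 without the block), Ndufs8 (-0.34, adjusted p = 0.0585), Ndufv3 (-0.48, adjusted p = 0.0241) and Uqcr10 (-0.33, adjusted p = 0.0919) were added to the lower ones. Beside these strain differences, B cell markers were lower in NOD PBS for 3 of 6 (median -1.04), conventional DC markers lower for 4 of 12 and higher for 1, and NK and T cell markers lower for 3 of 10. Over all probe sets 5.09% were lower and 4.78% higher. The part of these markers in the differences was not tested.

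In LPS culture, 5 members were lower in NOD as in PBS: Atp5e, Cox7c, Ndufa7, Ndufc2 and Ndufs5. Ndufv3 had 10.93, 10.70, 10.58 and 10.24 in NOD LPS, against 11.30, 11.54 and 11.17 in C57BL/6 LPS, with no overlap (difference -0.73 ± 0.17, SE, limma adjusted p = 0.0309). Ndufa7 differed by -0.60 (adjusted p = 0.0298), Ndufc2 by -0.55 (adjusted p = 0.0711) and Atp5e by -0.47 (adjusted p = 0.0417). Sdha was lower in NOD (-0.55, adjusted p = 0.0803), with 11.42, 11.24, 10.84 and 11.54 in NOD against 11.82, 11.88 and 11.73 in C57BL/6, and the muscle form Cox7a1 higher by 0.43 (adjusted p = 0.0991). Sdhb, Sdhc and Sdhd were not called (-0.07, 0.24 and -0.20). The number of calls rested on single arrays: 3 members were called without C57BL/6 LPS replicate 3, 5 without C57BL/6 LPS replicate 4 and 5 without NOD LPS replicate 2. Without C57BL/6 LPS replicate 3 the calls of Ndufv3 (-0.62, adjusted p = 0.116), Ndufa7 (-0.50, adjusted p = 0.116) and Atp5e (-0.45, adjusted p = 0.126) were lost, and that of Atp5e also without C57BL/6 LPS replicate 4 (adjusted p = 0.125) or NOD LPS replicate 2 (adjusted p = 0.111). The call of Ndufc2 was lost without C57BL/6 LPS replicate 2, 3 or 4 or NOD LPS replicate 2, 3 or 4 (adjusted p 0.117 to 0.2). The call of Sdha was lost without C57BL/6 LPS replicate 2, 3 or 4 or NOD LPS replicate 2 or 3 (adjusted p 0.131 to 0.215), with the replicate block (-0.61, adjusted p = 0.104) and with the mean over its probe sets (-0.03, adjusted p = 0.93). The call of Cox7a1 was lost without C57BL/6 LPS replicate 2, 3 or 4 or NOD LPS replicate 2, 3 or 4 (adjusted p 0.106 to 0.279). With the replicate block LPS culture gave 13 called members (11 lower and 2 higher), with Ndufs8 (-0.53, adjusted p = 0.0371), Ndufb2 (-0.54, adjusted p = 0.0383), Ndufb10 (-0.51, adjusted p = 0.0543), Ndufaf3 (-0.61, adjusted p = 0.0505) and Uqcr10 (-0.44, adjusted p = 0.0719) as added lower members, all named after their values were seen. B cell markers were lower in NOD LPS for 2 of 6 (median -1.18), conventional DC markers for 5 of 12 and NK and T cell markers for 3 of 10, beside 4.88% of all probe sets. The part of these markers was not tested.

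**Figure D5:**
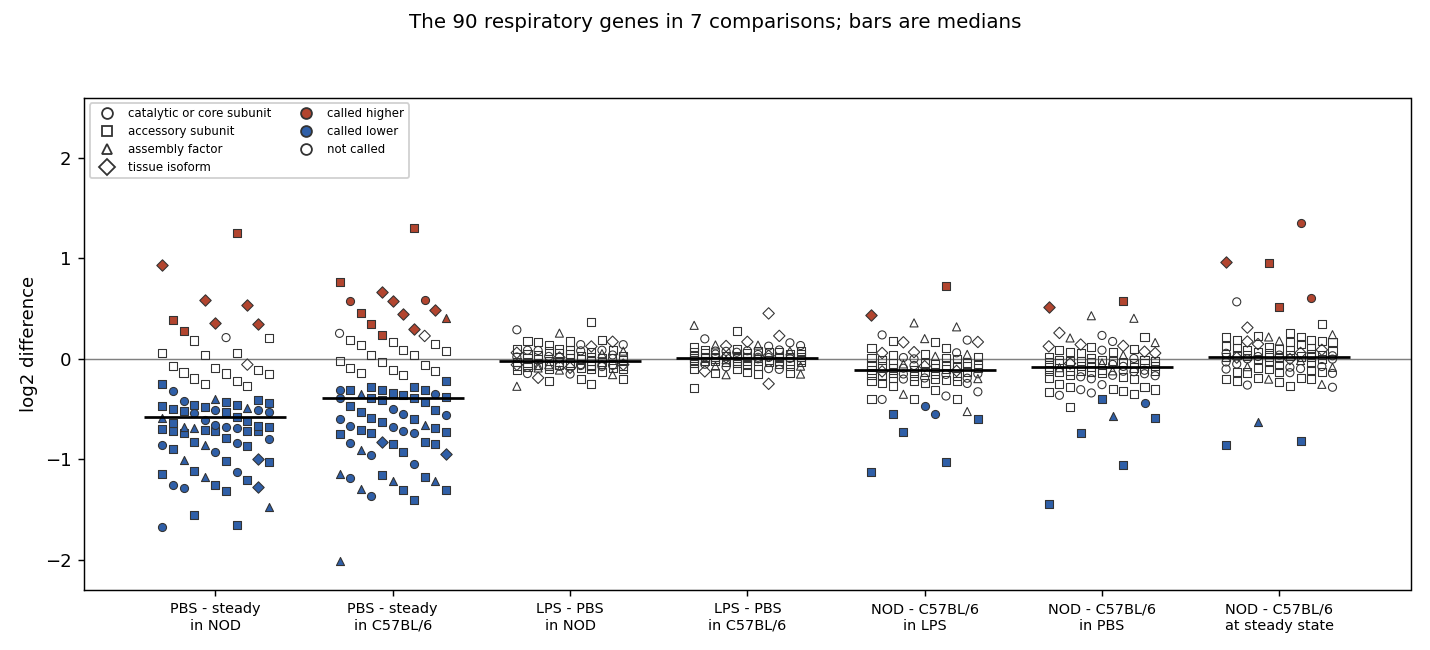
Log2 difference (y axis) of each of the 90 members in 7 comparisons (x axis): PBS culture against steady state in each strain, LPS against PBS in each strain, and NOD against C57BL/6 in LPS, in PBS and at steady state. Symbols show the class of subunit, fills the limma call and bars the medians, which are -0.58 and -0.39 for culture, and the LPS differences lie between -0.30 and 0.45.

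Of the 15 citric acid cycle genes, 1 was lower in NOD at steady state, 3 were lower in PBS, and 2 were lower and 2 higher in LPS. Over all probe sets 7.94% were lower at steady state, 5.09% in PBS and 4.88% in LPS, and 5.03% were higher in LPS. Suclg2 of the citric acid cycle was lower in NOD at steady state (-1.34, limma adjusted p = 5.78e-05), in PBS (-1.71, adjusted p = 1.83e-06) and in LPS (-1.16, adjusted p = 0.00741). Atpaf1, an assembly factor of the head of ATP synthase, differed by -0.35 at steady state (adjusted p = 0.0911), by -1.16 in PBS (adjusted p = 0.000745) and by -1.14 in LPS (adjusted p = 0.0102). Ppargc1b was not called at steady state (0.35, adjusted p = 0.12) and differed by -0.85 in PBS (adjusted p = 0.017) and by -0.98 in LPS (adjusted p = 0.0356). No gene of the carrier list was called in any of the 3 strain comparisons.

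The change with culture was compared between the strains as an interaction, the difference of NOD PBS over steady state minus that of C57BL/6. Of the 90 members 7 had a lower and 1 a higher value, beside 2.82% and 3.98% of all probe sets. Atp5g1 gave -1.43 ± 0.24 (SE, limma adjusted p = 0.0017): it had 10.92, 10.90, 10.66 and 11.28 in NOD PBS, against 11.54, 12.13 and 11.67 in NOD steady-state DCs, and 11.16, 10.91, 11.22 and 10.77 in C57BL/6 PBS, against 10.51, 10.51, 10.65 and 10.06 in C57BL/6 steady-state DCs. It fell in NOD (-0.84, adjusted p = 0.00162) and rose in C57BL/6 (0.59, adjusted p = 0.00446), and these values share their steady-state arrays with the strain difference above. Its other probe set gave 0.56 in NOD (adjusted p = 0.0292) and 0.14 in C57BL/6, and with the mean over both the interaction was -0.50 (adjusted p = 0.167) and the NOD difference -0.14 (adjusted p = 0.383). Ndufaf3 gave -0.81 (adjusted p = 0.00299), with 9.03 to 9.20 in NOD PBS against 9.40 to 9.66 at steady state, and 9.53 to 9.92 in C57BL/6 PBS against 9.26 to 9.38 at steady state.

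The other members called in the interaction fell more in NOD, except Ndufaf7. The complex III genes were Uqcr11 (-0.87, limma adjusted p = 0.0263), Uqcr10, another small subunit (-0.58, adjusted p = 0.0217), and Uqcrh, the hinge protein that contacts cytochrome c1 (-0.45, adjusted p = 0.0955). The complex I genes were Ndufc2 (-0.77, adjusted p = 0.0152) and Ndufa7 (-0.59, adjusted p = 0.0203). Ndufaf7 gave 0.54 (adjusted p = 0.0872), its fall being smaller in NOD. The call of Uqcrh was lost without any of 13 of the 15 arrays, the exceptions being NOD PBS replicate 4 and C57BL/6 PBS replicate 4 (adjusted p 0.1 to 0.202). The call of Ndufaf7 was lost without any of 10 arrays: NOD steady-state replicates 4 and 6, NOD PBS replicates 1, 2 and 3, the 4 C57BL/6 steady-state replicates and C57BL/6 PBS replicate 3 (adjusted p 0.104 to 0.258). With the mean over its probe sets Uqcr10 was not called (-0.15, adjusted p = 0.582). With the replicate number as a block, Atp5g1 was the only member called (-1.19, adjusted p = 0.0783), and the other 7 calls were lost (adjusted p 0.211 to 0.754). Among the other mitochondrial genes Ppargc1b gave -1.20 (adjusted p = 0.00669) and Atpaf1 -0.81 (adjusted p = 0.0272).

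Without the replicate block, LPS changed no respiratory gene past the threshold. No member was called by limma in NOD (3 at an unadjusted p under 0.05) or in C57BL/6 (2 at an unadjusted p under 0.05), beside 3.76% of all probe sets in NOD and 1.48% in C57BL/6. The member differences ran between -0.27 and 0.37 in NOD (median -0.03) and between -0.30 and 0.45 in C57BL/6 (median 0.01). The 95% confidence interval of the difference lay within 0.5 of zero for 76 of 90 members in NOD and for 81 in C57BL/6, and within 1 of zero for all 90 in both strains. These intervals come from the fit without the replicate block and leave differences inside them possible. With the block, which takes same-numbered LPS and PBS samples as pairs, 1 member (Ndufb1) was called in NOD and 0 in C57BL/6. In NOD the block called 4282 probe sets, against 1693 without it.

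The LPS medians by complex in NOD were -0.06 for I, -0.10 for II, 0.04 for III, -0.02 for IV and 0.02 for V, and in C57BL/6 -0.01, 0.06, 0.01, 0.02 and 0.02. In NOD the 3 members at an unadjusted p under 0.05 were Ndufb1 (0.37), Uqcrfs1 (0.29) and Ndufaf7 (-0.27), with adjusted p of 0.199, 0.246 and 0.291. In C57BL/6 they were Cox6b2 (0.45, adjusted p = 0.333) and Ndufaf8 (0.33, adjusted p = 0.439). These 5 were named after their values were seen. With the replicate block, Ndufb1 was called in NOD (adjusted p = 0.0676), with 9.28, 8.90, 9.26 and 9.05 in NOD LPS against 8.74, 8.53, 8.85 and 8.91 in NOD PBS, which overlapped by 1 array. The difference between the strains in the LPS change was called for no member (1 at an unadjusted p under 0.05, Cox6b2 with -0.64), beside 0.0244% of all probe sets.

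Around the chain, LPS changed no gene of the citric acid cycle, carrier, assembly factor, biogenesis or fusion and fission lists in either strain (limma without the replicate block, adjusted p under 0.1). Of the 76 mitochondrial ribosomal genes, 3 rose in NOD and 1 in C57BL/6. Mrpl52 was higher by 0.65 in NOD (adjusted p = 0.00658) and by 0.58 in C57BL/6 (adjusted p = 0.0642), and Mrps28 by 0.65 in NOD (adjusted p = 0.0395) with 0.35 in C57BL/6 (adjusted p = 0.336). Cell cycle genes rose for 1 of 11 in NOD and for 6 of 11 in C57BL/6, and macrophage markers fell for 5 of 10 with 1 higher in NOD and for 3 of 10 in C57BL/6. Over all probe sets LPS called 1.68% higher and 2.08% lower in NOD, and 0.715% higher and 0.762% lower in C57BL/6.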

How the data were processed

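RNA of sorted DCs was amplified (NuGEN Ovation Pico) and measured on Affymetrix whole-genome mouse arrays. The authors summarised the arrays by RMA (BRB-ArrayTools, version not given in the labels or methods) and deposited log2 intensities of the probe sets. All 22 arrays were used, and no pair held identical values. Replicates are separate pools of mice. The table holds 45101 probe sets, of which 45037 were tested after removal of 64 AFFX controls. Of these, 34945 name 1 gene, 932 name several and 9160 are unnamed here. The members have 179 probe sets of their own, 51 genes with several and 39 with 1.

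For each contrast, limma 3.58.1 (R 4.3.3) was run on only the groups compared. Calls were made below 0.1 after Benjamini-Hochberg adjustment across the 45037 tested probe sets, the level that the study's methods use. Their multivariate permutation test was not rebuilt. SE is the moderated standard error of a log2 difference. The code was tested on simulated data. The members and the gene lists were chosen with earlier results of these data known. Named genes were the 4 Sdh genes, for each comparison and complex up to 3 called members per direction with the largest difference, the members called in an interaction, the paralogs of other tissues as a group, and up to 3 called genes of each other list. The settings varied were the threshold (0.05), the removal of the dimmer 50% of probe sets (22518 kept, with 84 members), the fit (all 22 arrays together, or a trend in intensity plus robust moderation), median centring of arrays, averaging of all probe sets per gene (18193 genes), a block for the replicate number, and omission of single arrays.

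Same-numbered samples deviated together between strains, with correlations of the deviations from group means of 0.109 to 0.433 at steady state, 0.137 to 0.32 in PBS and 0.114 to 0.345 in LPS, and of 0.241 to 0.487 in NOD and 0.259 to 0.423 in C57BL/6 between LPS and PBS. Each of these comparisons had at least 3 such pairs over 0.1, so the numbers were taken as pairs there, although the labels give only the numbers. Between strains, the NOD arrays of replicate 1 at steady state and replicate 3 in PBS correlated best with another number. Promoters and positions are from RefSeq (GRCm38.p6). The number of arrays limits the precision of all values.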

Additional observations from a re-analysis of the deposited data

Results flagged for a closer look

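The change with culture differed between NOD and C57BL/6 by a test of the difference itself for 8 members: Atp5g1 (-1.43), Uqcr11 (-0.87), Ndufaf3 (-0.81), Ndufc2 (-0.77), Ndufa7 (-0.59), Uqcr10 (-0.58), Uqcrh (-0.45) and Ndufaf7 (0.54), each as the NOD minus the C57BL/6 log2 difference of PBS culture over steady state. In all but Ndufaf7 the NOD value was the lower one. The values rest on 1 probe set per gene, and those of Atp5g1 and Uqcr10 were not called with the mean over the probe sets. With the replicate number as a block only Atp5g1 was called (-1.19, limma adjusted p = 0.0783), and the other 7 were not (adjusted p 0.211 to 0.754).

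A single array lay far from the other 3 of its group for 4 of the named genes, among 156 groups of 4 values that were checked. Chance alone gives such a gap in about 1 of 20 groups. Ndufb10 was 10.971 on NOD PBS replicate 1, with 10.237 to 10.327 on the others, and Cox7a2l was 12.125 on the same array, with 11.615 to 11.692 on the others. Atp5d was 12.086 on C57BL/6 PBS replicate 3, with 11.866 to 11.893 on the others. Cox8b was 6.819 on C57BL/6 steady-state replicate 6, with 7.045 to 7.072 on the others.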

How the results depend on the processing

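Of the called values of named genes, 570 of 642 kept their direction and call when 1 array was left out, 72 lost the call and 0 turned, and under the other alternatives 505 of 541 kept both, 35 lost the call and 1 turned. At steady state the count of called members between strains was 8, against 13 with an intensity trend, 16 with the mean over probe sets, 10 with the replicate block and 6 to 13 without 1 array. In PBS it was 9, against 17 in 1 fit of all arrays, 14 with an intensity trend, 14 with the replicate block and 6 to 10 without 1 array. In LPS it was 9, against 16 in 1 fit of all arrays, 13 with the replicate block and 3 to 12 without 1 array. LPS against PBS in NOD called 0 members, and 1 with the replicate block. The strain by culture interaction called 8, against 1 with the replicate block and 6 to 11 without 1 array. The culture comparisons share only 2 replicate numbers per strain (correlations 0.277 and 0.0996 in NOD, 0.177 and -0.0328 in C57BL/6). The rule above needs 3 pairs, so it could not decide whether these numbers pair the samples. With the replicate block 59 members were called in NOD, against 73 without it, and 55 in C57BL/6, against 72. The lost culture calls included Sdhb, Sdhd, Uqcrq and Ndufa4l2 in NOD (adjusted p 0.124 to 0.31). In C57BL/6 they included Sdhd, Ndufa4l2, Uqcr10 and Cox8c (adjusted p 0.101 to 0.244). The block of the interaction joins the same numbers. The direction turned for Sdhc in C57BL/6 culture (-0.013) and NOD culture (-0.38) and for Sdha between strains at steady state (0.033), each with the mean over probe sets, and for Sdhb between strains at steady state with the replicate block (-0.0093). Without 1 array the steady-state strain difference of Sdhb ran between -0.016 and 0.064 and that of Sdhd between -0.16 and 0.037. With the mean over probe sets the calls of Cox8c (0.18, adjusted p = 0.129) and Uqcr10 (-0.17, adjusted p = 0.113) in C57BL/6 culture were lost. The causes were not tested. Groups of 3 or 4 arrays, probe sets of 1 gene that disagree, and culture that cannot be told apart from the experiment limit these results.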
